A study of Caenorhabditis elegans with 12 samples.

Results

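The cytochrome P450 genes of Caenorhabditis elegans whose symbol begins with cyp- were followed in whole animals of the mutant affl-2(sy975) (strain PS8060) and the wild type N2, with and without a heat shock. The annotation holds 74 such genes. A gene counted as a member when its estimated count, summed over transcripts, was 10 or more in at least 3 libraries, which 55 genes met among 22010 genes in the deposited tables. All 55 also passed the low-count filter of the test. The 4 groups, of 3 libraries each, were heated affl-2, unheated affl-2, heated N2 and unheated N2. For each library 250 animals at the L4 larval stage were picked onto plates with OP50 bacteria, and the plates were sealed with parafilm and held for 30 min in a 33 °C water bath or at 20 °C. affl-2 encodes a relative of the AF4/FMR2 proteins, which are known as parts of transcription elongation complexes. The labels do not describe the sy975 lesion and do not say where replicates were separated, by culture or later, so each p-value reflects the spread between these libraries, which may be technical.

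Cytochrome P450s are heme enzymes that put an oxygen atom into small molecules. Most take their electrons from a single reductase, encoded in the worm by emb-8. The worm uses them on steroid hormones, fatty acids and foreign chemicals, and many of the genes are active in the intestine, where drugs and toxins induce some of them. Names follow sequence: the number is the family, the letter the subfamily. Families 14, 33, 34 and 35 are usually placed with the CYP2 group of vertebrates, families 13, 25 and 43 with CYP3, families 29, 31, 32, 37 and 42 with CYP4, and cyp-44A1 with the mitochondrial P450s. daf-9, which makes the ligands of the hormone receptor DAF-12, is also a P450, but its symbol kept it outside the set.

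Libraries held 17973117 to 22657735 estimated counts. The labels were checked with heat shock genes. hsp-70 averaged 110 CPM in heated and 1.81 CPM in unheated affl-2, against 2740 CPM in N2 after heat and 4.08 CPM in unheated N2. hsp-16.2 averaged 123 and 0.604 CPM in heated and unheated affl-2, and 1040 and 2.17 CPM in heated and unheated N2. CPM is the count scaled to library size after TMM, which adjusts for differences in composition. affl-2 mRNA averaged 17.6 and 16.7 CPM in heated and unheated mutants, against 26.9 and 22.7 CPM in N2. Because the lesion is not given, that level does not check the genotype. The unheated affl-2 replicates 1 and 2 carry library IDs in their descriptions that are exchanged in their file names, so which of the 2 belongs to which number is uncertain; both are unheated affl-2. In whole animals, fewer cells of a type and less RNA per cell cannot be told apart.

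The family spanned low to moderate levels. Over the 12 libraries, mean TPM (an abundance adjusted for transcript length and depth) ran from 0.246 to 33.5, with a median of 4.14 over the 55 members. There were 10 members at 10 TPM or more and 12 under 1 TPM. The 10 highest were cyp-35A2, cyp-37A1, cyp-31A5, cyp-31A2, cyp-35C1, cyp-43A1, cyp-31A3, cyp-29A2, cyp-44A1 and cyp-35A3, and together they held 44.7 to 60.6% of the family's TPM in a library. cyp-35A2, which has been linked to fat storage and is induced by foreign chemicals, stood at 22.4 ± 3.98 TPM in heated and 22.5 ± 4.20 TPM in unheated affl-2, and at 37.2 ± 5.17 TPM in heated and 51.8 ± 1.65 TPM in unheated N2 (SD, n = 3 each). It was first in unheated N2; in unheated affl-2 cyp-37A1 stood at 28.6 ± 2.25 TPM and cyp-31A5 at 23.5 ± 5.81 TPM. cyp-31A2 and cyp-31A3, a near-identical pair known for making the lipid layer of the eggshell, averaged 23.2 ± 6.73 and 17.4 ± 4.49 TPM in unheated affl-2, against 19.9 ± 2.28 and 16.5 ± 1.21 TPM in unheated N2. Their libraries overlapped, and none of the 3 family 31 members passed in any comparison. cyp-44A1 averaged 16.6 ± 2.42 TPM in unheated affl-2 and 13.4 ± 1.34 TPM in unheated N2, and also passed nowhere.

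**Figure D1:**
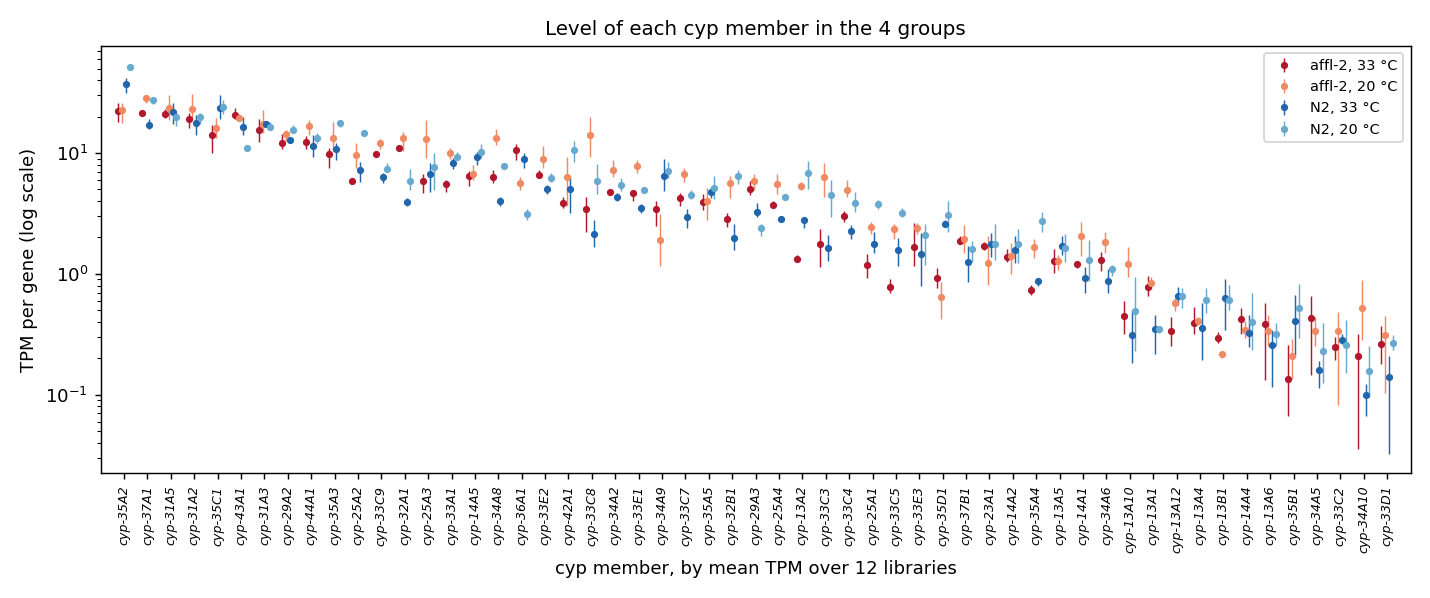
TPM per gene on a log scale for the 55 members, ordered by their mean over 12 libraries. Points are means of 3 libraries and bars run from the lowest to the highest library of heated affl-2, unheated affl-2, heated N2 and unheated N2. The means span 0.246 to 33.5 TPM.

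The remaining 19 annotated cyp genes lay below the minimum, with at most 13 counts in any library. They were cyp-34A7, cyp-29A4, cyp-35A1, cyp-33B1, cyp-33C1, cyp-13A11, cyp-33C6, cyp-25A6, cyp-13B2, cyp-35B3, cyp-35B2, cyp-14A3, cyp-13A7, cyp-13A8, cyp-13A3, cyp-34A1, cyp-33D3, cyp-33C11 and cyp-33C12. cyp-35B3 had 0 counts in all 12 libraries. Just outside the minimum, cyp-29A4 had 1 to 13 counts per library and cyp-13B2 1 to 12. Just inside it, cyp-33C2 had 2 to 13 and cyp-34A10 1 to 23.

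The genotypes differed in the family without heat. At 20 °C, 8 members were higher and 11 lower in affl-2 than in N2, 34.5% of the 55 against 14% of all 15386 genes tested (6.69% higher and 7.29% lower). The median member lay at a log2 change of −0.06, and the median of all genes at 0.00. A gene passed at an adjusted p under 0.05 (edgeR quasi-likelihood F test, Benjamini-Hochberg over all genes tested). The count was lower without unheated N2 replicate 1 (10 members), unheated N2 replicate 3 (11) or unheated affl-2 replicate 2 (12). Library sizes without TMM, which shifted the median gene by 0.184 here, gave 10 members higher and 8 lower, beside 2737 and 649 of all genes.

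Family 35 lay lower in the mutant. This family holds genes that foreign chemicals induce in the intestine. Its 7 members summed to 57.1, 46.2 and 71.3 TPM in unheated affl-2, against 102, 105 and 108 TPM in unheated N2, and the libraries did not overlap. These sums weigh abundant genes most, and cyp-35A2 had the highest mean TPM of the 7. All 7 members had log2 changes below 0 at 20 °C, with a median of −0.95 (−0.77 without TMM), and 4 of them passed.

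cyp-35D1, on chromosome V from 16069238 to 16071318 on the plus strand (WBcel235), is known for metabolising the drug thiabendazole. It had 1.07, 0.568 and 0.861 CPM in unheated affl-2, against 3.44, 5.87 and 4.82 CPM in unheated N2. The highest mutant library held far less than the lowest N2 library, and the log2 change of −2.49 ± 0.26 (SE; adjusted p = 5.63e-05) was the lowest of the family at 20 °C. cyp-35A2 (V, 7362319 to 7364182, minus strand) had 31.2, 24.8 and 35.8 CPM in unheated affl-2, against 81.2, 80.6 and 88.0 CPM in unheated N2. Mutant libraries stood well apart from wild type, and the log2 change was −1.44 ± 0.17 (adjusted p = 0.000149). cyp-35A4 had 2.13, 1.80 and 2.58 CPM in unheated affl-2, against 4.38, 4.65 and 3.54 CPM in unheated N2, a log2 change of −0.95 ± 0.19 (adjusted p = 0.00547). cyp-35C1 had 18.5, 17.5 and 25.6 CPM in unheated affl-2, against 36.9, 30.2 and 43.2 CPM in unheated N2. Here the gap between groups was narrow, and the log2 change of −0.84 ± 0.25 had an adjusted p of 0.0436. The other members of the family, cyp-35A3 (−0.66 ± 0.22, adjusted p = 0.0614), cyp-35A5 (−0.62 ± 0.22, 0.0823) and cyp-35B1 (−1.57 ± 0.58, 0.0896), did not pass. cyp-35B1, known as a target of the insulin-pathway factor DAF-16, had 2 to 29 counts per library.

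Outside family 35, 7 members were lower in unheated affl-2. cyp-34A9 had 3.44, 1.66 and 2.01 CPM in unheated affl-2, against 8.19, 8.79 and 10.7 CPM in unheated N2, and fell with a log2 change of −1.96 ± 0.26 (adjusted p = 0.000327). cyp-13B1, one of the rarest members at 6 to 27 counts per library, had 0.291, 0.331 and 0.287 CPM in unheated affl-2, against 0.850, 1.27 and 0.886 CPM in unheated N2. Even so its groups were well separated (−1.70 ± 0.38, adjusted p = 0.00927). cyp-14A5 (V, 5421018 to 5423282, minus strand) had 8.63, 9.94 and 12.3 CPM in unheated affl-2, against 21.5, 16.8 and 17.0 CPM in unheated N2. Its log2 change was −0.84 ± 0.16 (adjusted p = 0.00359). cyp-25A1 (−0.85 ± 0.21, adjusted p = 0.0143) and cyp-25A2 (−0.83 ± 0.19, 0.00908), side by side on chromosome III, fell by similar amounts. cyp-33C5 (−0.70 ± 0.21, 0.0413) and cyp-13A2 (−0.58 ± 0.17, 0.0338) fell by less.

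The 8 higher members came from 7 families. cyp-29A3, which acts in making eicosanoids, oxygenated derivatives of long fatty acids, had 8.83, 8.19 and 6.89 CPM in unheated affl-2, against 4.12, 3.95 and 3.49 CPM in unheated N2. It rose by 1.05 ± 0.15 on the log2 scale (adjusted p = 0.00056), and the lowest mutant library lay well above the highest N2 library. cyp-32A1 (V, 7781811 to 7784594, plus strand) had 14.2, 21.7 and 22.1 CPM in unheated affl-2, against 12.7, 7.94 and 9.55 CPM in unheated N2, a log2 change of 0.94 ± 0.20 (adjusted p = 0.00649). The remaining 6 were cyp-33C8 (1.06 ± 0.32, adjusted p = 0.047), cyp-13A1 (1.02 ± 0.32, 0.0468), cyp-36A1 (0.61 ± 0.18, 0.0338), cyp-43A1 (0.58 ± 0.14, 0.0133), cyp-34A8 (0.53 ± 0.16, 0.0439) and cyp-33C9 (0.45 ± 0.13, 0.0323). cyp-36A1 is known to act downstream of the oxygen-sensing genes egl-9 and hif-1.

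Several of these calls were fragile, in that leaving out any 1 of several libraries left the direction and ended the call. For cyp-36A1 this held for each unheated N2 library and unheated affl-2 replicate 3 (log2 0.49 to 0.65, adjusted p 0.0676 to 0.096). For cyp-33C9 it held for each unheated N2 library and unheated affl-2 replicate 2 (0.40 to 0.48, 0.058 to 0.0939). For cyp-25A1 the libraries were unheated N2 replicates 1 and 3 and unheated affl-2 replicate 1 (−0.80 to −0.68, 0.0552 to 0.0679). For cyp-13A2 they were each unheated affl-2 library and unheated N2 replicates 1 and 2 (−0.56 to −0.41, 0.0707 to 0.149). cyp-34A8 lost its call without each unheated N2 library, heated N2 replicate 1 or 2, heated affl-2 replicate 3 or unheated affl-2 replicate 2 (0.40 to 0.60, 0.053 to 0.159). cyp-13A1 lost it without each unheated N2 library, heated N2 replicate 2, heated affl-2 replicate 1 or unheated affl-2 replicate 2 or 3 (0.93 to 1.11, 0.0604 to 0.13). cyp-35C1 lost it without heated N2 replicate 2, unheated N2 replicate 1 or 3, heated affl-2 replicate 2 or unheated affl-2 replicate 1 or 2 (−0.84 to −0.70, 0.0505 to 0.174). cyp-33C5 lost it without each unheated affl-2 library, heated affl-2 replicate 1, or replicate 1 or 3 of heated or unheated N2 (−0.77 to −0.58, 0.0542 to 0.163). cyp-33C8 lost it without 9 of 12 libraries: heated affl-2 replicates 1 and 3, unheated affl-2 replicates 1 and 2, all heated N2, and unheated N2 replicates 1 and 3 (0.75 to 1.17, 0.0512 to 0.166). Other settings ended some of the same calls at 20 °C. With the compared libraries alone, 4 members were higher and 9 lower, beside 896 and 740 of all genes. The calls of cyp-34A8 (0.56, adjusted p = 0.0562), cyp-33C9 (0.48, 0.058), cyp-33C5 (−0.68, 0.0635), cyp-33C8 (1.08, 0.074), cyp-13A2 (−0.56, 0.0681) and cyp-13A1 (1.04, 0.0545) were then lost. Without TMM the same held for cyp-35C1 (−0.66, 0.0566), cyp-33C5 (−0.51, 0.0912) and cyp-13A2 (−0.39, 0.104). Without the low-count filter it held for cyp-35C1 (−0.80, 0.0781), cyp-33C5 (−0.66, 0.0659) and cyp-33C8 (1.1, 0.059), and with DESeq2 for cyp-13A1 (1.05, 0.0667). By contrast the calls of cyp-35D1, cyp-35A2, cyp-35A4, cyp-34A9, cyp-13B1, cyp-14A5, cyp-25A2, cyp-29A3, cyp-32A1 and cyp-43A1 held in every alternative run.

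**Figure D2:**
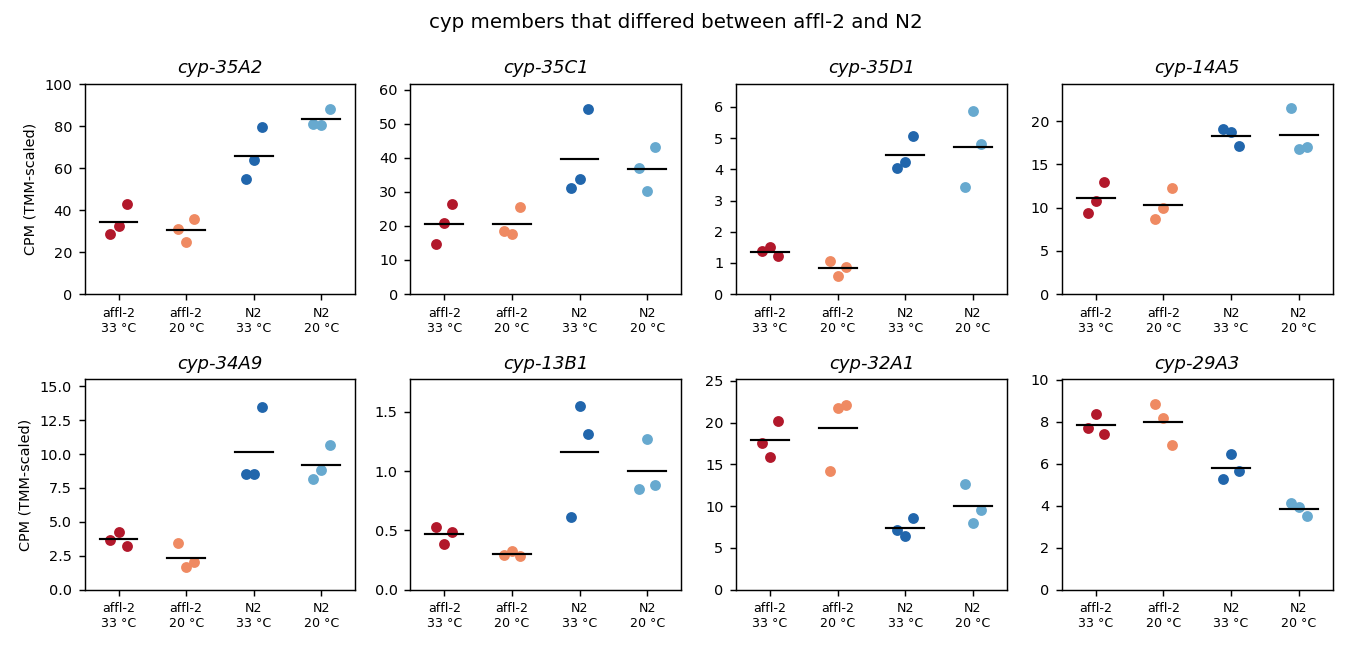
CPM after TMM scaling in each of the 12 libraries for 8 members that differed between affl-2 and N2. Points are libraries and lines are group means; cyp-35A2 averages 30.6 CPM in unheated affl-2 and 83.3 CPM in unheated N2, and cyp-29A3 7.97 and 3.85 CPM.

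Some of the genotype differences were also seen after heat and others were not. After heat shock, 2 members were higher and 11 lower in affl-2 than in N2, 23.6% of the members against 19.7% of all genes (10.1% higher and 9.57% lower). The median member lay at −0.08 and the median of all genes at 0.04. Of the 8 members higher at 20 °C, cyp-32A1 and cyp-33C9 passed again after heat shock, while cyp-36A1 lay at 0.05 ± 0.16 (adjusted p = 0.834) and cyp-43A1 at 0.15 ± 0.14 (0.448). Library sizes without TMM shifted the median gene by 0.224 and gave 9 members higher and 10 lower, beside 4868 and 831 of all genes. With replicate number as a block, 4 members were higher and 12 lower, beside 1860 and 1807 of all genes. With the numbers of unheated affl-2 replicates 1 and 2 exchanged, 5 members were higher and 15 lower, beside 2665 and 2490 of all genes.

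9 members were lower in affl-2 at both temperatures, which is 81.8% of the lower members at each. They were cyp-13A2, cyp-13B1, cyp-14A5, cyp-25A1, cyp-33C5, cyp-34A9, cyp-35A2, cyp-35C1 and cyp-35D1. For all genes, 732 were lower in both, 49.7% of those lower after heat shock and 65.3% of those lower at 20 °C. The 2 comparisons share no library. cyp-35D1 had 1.38, 1.5 and 1.21 CPM in heated affl-2, against 4.04, 4.24 and 5.06 CPM in heated N2 (log2 −1.70 ± 0.25, adjusted p = 0.00037). cyp-34A9 had 3.69, 4.29 and 3.20 CPM in heated affl-2, against 8.52, 8.54 and 13.5 CPM in heated N2 (−1.45 ± 0.25, 0.00134). Neither gene's groups came near each other. cyp-35A2 had 28.4, 32.5 and 42.7 CPM in heated affl-2, against 54.7, 63.7 and 79.6 CPM in heated N2 (−0.93 ± 0.17, 0.00202). cyp-35C1 had 14.7, 20.8 and 26.5 CPM in heated affl-2, against 31.2, 33.8 and 54.2 CPM in heated N2 (−0.94 ± 0.25, 0.0218). Both kept a gap between groups, although heated libraries were spread more widely. cyp-14A5 averaged 11.1 ± 1.83 CPM in heated affl-2 and 18.3 ± 1.11 CPM in heated N2 (SD, n = 3 each; log2 −0.73 ± 0.16, 0.007). In heated family 35 as a whole, the sums were 40.6, 56.4 and 59.7 TPM in affl-2, against 67.4, 79.7 and 93.5 TPM in N2, all 7 log2 changes were below 0 and 3 passed.

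cyp-13A2 had 2.98, 2.36 and 2.81 CPM in heated affl-2, against 5.49, 6.57 and 7.45 CPM in heated N2. Its log2 change was −1.26 ± 0.19 (adjusted p = 0.000495), with a wide gap between the groups. cyp-33C5 (−1.14 ± 0.25, 0.00602), cyp-13B1 (−1.29 ± 0.36, 0.0226) and cyp-25A1 (−0.79 ± 0.23, 0.029) were lower as well. cyp-33A1 and cyp-13A12 were lower after heat shock and did not pass at 20 °C. cyp-33A1 (V, 7679314 to 7681459, minus strand) had 9.95, 9.36 and 8.58 CPM in heated affl-2, against 15.6, 16.7 and 15.5 CPM in heated N2 (−0.78 ± 0.13, 0.000946). cyp-13A12, known for its part in the behavioural response to reoxygenation, averaged 0.558 ± 0.186 CPM in heated affl-2 and 1.27 ± 0.188 CPM in heated N2 (SD, n = 3 each; −1.16 ± 0.29, 0.014), at 8 to 27 counts per library. In the other direction, cyp-32A1 had 17.6, 15.9 and 20.2 CPM in heated affl-2, against 7.12, 6.45 and 8.59 CPM in heated N2. Every heated mutant library held more than every heated N2 library (1.28 ± 0.21, adjusted p = 0.000792). cyp-33C9 rose by 0.44 ± 0.13 (0.0318) to 14.6 ± 1.25 CPM in heated affl-2, against 10.7 ± 1.29 CPM in heated N2. cyp-13A1 (0.95 ± 0.32, 0.0514), cyp-29A3 (0.44 ± 0.15, 0.0541) and cyp-34A8 (0.47 ± 0.17, 0.0692) lay above 0 with groups that did not overlap and did not pass.

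Without single libraries, cyp-13A12 missed the threshold once (without heated N2 replicate 2, −1.07, adjusted p = 0.056). cyp-35C1 missed it without heated affl-2 replicate 1 or 2 or heated N2 replicate 3 (−0.95 to −0.64, 0.051 to 0.0879). cyp-25A1 did so without heated affl-2 replicate 2 or 3 or heated N2 replicate 2 or 3 (−0.78 to −0.65, 0.0592 to 0.12), and without TMM (−0.57, 0.0675). cyp-33C9 did so without heated affl-2 replicate 1 or 3 or heated N2 replicate 1 or 2 (0.35 to 0.44, 0.0863 to 0.13), and with the compared libraries alone (0.43, 0.0506). cyp-13B1 did so without each heated affl-2 library or heated N2 replicate 2 or 3 (−1.39 to −1.02, 0.0509 to 0.109).

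**Figure D3:**
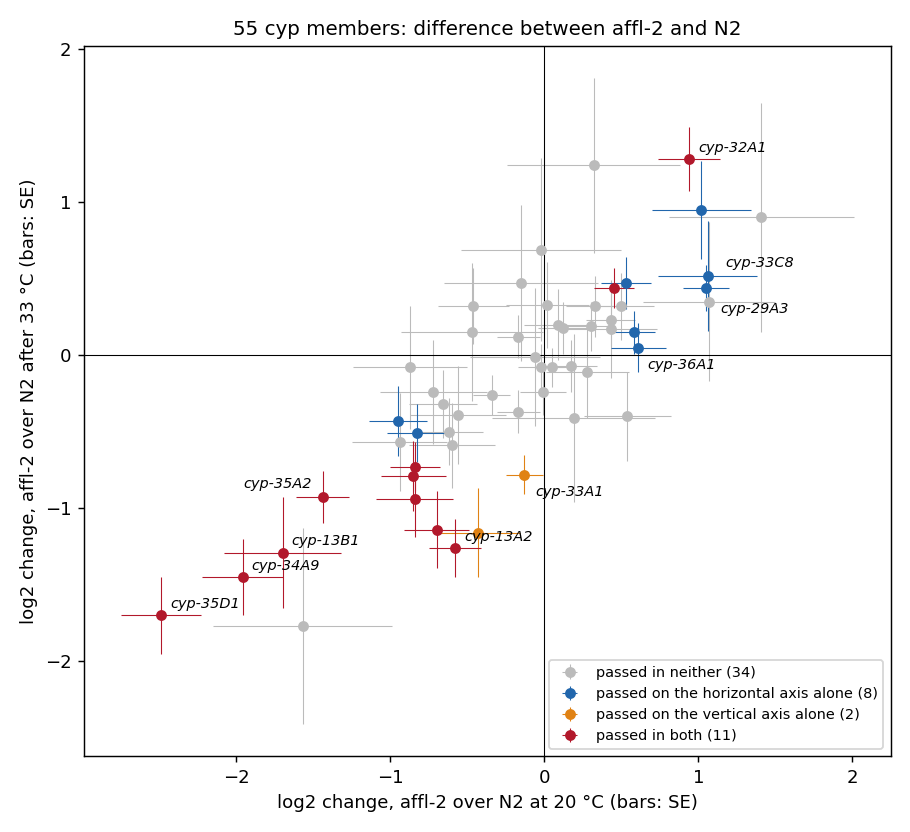
Log2 change of affl-2 over N2 for the 55 members, at 20 °C on the horizontal axis and after heat shock on the vertical axis, with standard errors as bars; colours show where a member passed. The 9 members lower at both temperatures lie in the lower left corner, with cyp-35D1 at −2.49 and −1.70, and cyp-32A1 and cyp-33C9 passed in the upper right.

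Some markers of other tissues and of stage moved with genotype too, and others did not. Of 12 intestinal markers, asp-1, cpr-1 and mtl-2 fell in affl-2 at both temperatures, and pept-1 rose after heat shock. asp-1, an intestinal protease gene, had a log2 change of −0.96 ± 0.15 at 20 °C (adjusted p = 0.000815). The intestinal list summed to 3530 to 4090 TPM in unheated affl-2, against 4730 to 5200 TPM in unheated N2, and to 2460 to 2840 TPM in heated affl-2, against 3550 to 3890 TPM in heated N2. These sums weigh abundant genes most, and asp-1 averaged 1750 TPM over the 12 libraries. Its median log2 change as a list was −0.05 at 20 °C and 0.03 after heat shock, with 6 of the 12 markers above 0 in each. The intestinal markers therefore did not move in a single direction with genotype. Of 7 oocyte and adult stage markers, 3 were lower at 20 °C and 4 after heat shock, with medians of −0.38 and −0.68. At 20 °C 2 of the 7 lay above 0, among them cbd-1 (0.04 ± 0.30, adjusted p = 0.946). Of the yolk protein genes, made in the intestine of adults, vit-2 was lower by a log2 change of −1.37 ± 0.19 at 20 °C (adjusted p = 0.000418). vit-5 was lower by −2.30 ± 0.29 (0.000487). The adult collagen gene col-19 was present in all groups, at 722 to 1160 CPM as group means, in animals labelled L4. It was lower in heated affl-2 than in heated N2 (−0.68 ± 0.20, adjusted p = 0.0344) and did not pass at 20 °C (−0.38 ± 0.20, 0.247). The 6 molting genes had a median of −2.08 at 20 °C with 1 member called, nas-37, and summed to 47.1 to 201 TPM in unheated affl-2, against 167 to 421 TPM in unheated N2. After heat shock all 6 lay below 0, with a median of −1.22 and 0 called. They then summed to 134 to 186 TPM in affl-2, against 194 to 338 TPM in N2. Of 8 sperm markers, 1 was higher in affl-2 after heat shock and 0 at 20 °C, with medians of 0.39 and 0.07. Of 8 germline markers 4 fell at 20 °C and 3 after heat shock. Of 7 neuron markers 0 passed at either temperature. Of 5 pharynx markers 0 passed at 20 °C and 2 fell after heat shock, and of 6 muscle markers 1 fell at each temperature. No marker list had a member at 0 in all libraries. The part of intestinal content and stage in the cyp differences was not tested.

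Heat shock lowered more cyp genes than it raised. In affl-2, 1 member rose and 11 fell with heat, 21.8% of the members against 21.4% of all genes (10.6% higher and 10.8% lower). In N2, 3 rose and 10 fell, 23.6% of the members against 21.5% of all genes (9.52% higher and 12% lower). So the share called was near that of all genes in both genotypes. The median member lay at −0.24 in affl-2 and −0.20 in N2, and the median gene at 0.03 and −0.01. Library sizes without TMM shifted the median gene by −0.142 in affl-2 and −0.182 in N2, and gave 1 higher and 18 lower in affl-2 and 2 higher and 18 lower in N2. Falling genes also became more numerous among all 15386 genes, with 930 higher and 2631 lower in affl-2 and 911 and 3487 in N2. With replicate number as a block, which pairs the N2 libraries, 3 rose and 15 fell with heat in N2, beside 1729 and 2123 of all genes. In affl-2, the block with the numbers of unheated replicates 1 and 2 exchanged gave 2 higher and 17 lower, beside 2523 and 2266 of all genes.

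8 members fell with heat in both genotypes: cyp-13A2, cyp-25A1, cyp-32B1, cyp-33C3, cyp-33C5, cyp-33C8, cyp-34A8 and cyp-35A4. They made up 72.7% of the members lower in affl-2 and 80% of those lower in N2. For all genes, 1153 fell in both, 69.3% and 62.4% of the 2 lists. The heat comparisons share no library. cyp-13A2 (II, 9783384 to 9787629, minus strand) had 2.98, 2.36 and 2.81 CPM in heated affl-2, against 9.94, 9.57 and 9.13 CPM in unheated affl-2. In N2 it had 5.49, 6.57 and 7.45 CPM with heat, against 14.3, 17.3 and 11.2 CPM without. The log2 changes were −1.81 ± 0.19 in affl-2 (adjusted p = 1.28e-05) and −1.13 ± 0.17 in N2 (0.000282), and heated and unheated libraries were well apart in both. cyp-33C8 had 6.22, 3.23 and 7.37 CPM in heated affl-2, against 18.2, 28.4 and 13.2 CPM in unheated affl-2 (−1.83 ± 0.33, 0.00199). In N2 it had 2.97, 4.84 and 3.92 CPM with heat, against 7.65, 12.6 and 8.46 CPM without (−1.29 ± 0.35, 0.0194). Unheated libraries of this gene were spread widely in both genotypes.

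cyp-33C3 had 4.18, 2.80 and 2.13 CPM in heated affl-2, against 12.1, 10.5 and 6.84 CPM in unheated affl-2 (−1.69 ± 0.29, 0.000803), and 3.08, 4.0 and 2.79 CPM with heat in N2, against 8.41, 10.2 and 5.66 CPM in unheated N2 (−1.30 ± 0.29, 0.0049). cyp-32B1 had 3.78, 4.05 and 5.19 CPM in heated affl-2, against 7.76, 8.90 and 5.79 CPM in unheated affl-2 (−0.79 ± 0.24, 0.0282). In N2 it had 2.69, 2.87 and 4.83 CPM with heat, against 11.6, 8.18 and 11.1 CPM without (−1.57 ± 0.24, 0.000319). Its gap between groups was narrow in affl-2 and wide in N2. cyp-35A4 had 1.02, 0.965 and 1.26 CPM in heated affl-2, against 2.13, 1.80 and 2.58 CPM in unheated affl-2 (−1.0 ± 0.22, 0.00496). In N2 it had 1.51, 1.43 and 1.42 CPM with heat, against 4.38, 4.65 and 3.54 CPM without (−1.52 ± 0.21, 0.000108). It was the one family 35 member that passed with heat in either genotype. cyp-35A2 in N2 also had every heated library below every unheated one, and did not pass. cyp-33C5 (−1.37 ± 0.24 in affl-2 and −0.94 ± 0.22 in N2, adjusted p = 0.000999 and 0.00663), cyp-25A1 (−0.90 ± 0.23 and −0.96 ± 0.21, 0.0115 and 0.00455) and cyp-34A8 (−0.89 ± 0.17 and −0.82 ± 0.17, 0.0016 and 0.00305) completed the set.

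The falls with heat came from several families. Of all genes tested, 10.8% were called lower with heat in affl-2 and 12% in N2, and 10.6% and 9.52% higher. With few members per family, the counts below are not read as differing from these shares. In family 33, all 12 members lay below 0 in affl-2 and 11 in N2, with 5 and 3 called lower and medians of −0.51 and −0.42 (−0.66 and −0.61 without TMM). In family 25, all 4 members lay below 0 in both genotypes, with 2 called in each. Family 14 had 4 members and none called with heat. Of the 13 CYP3-like members, 3 were called lower in each genotype. Among the 10 CYP4-like members, 1 was called lower in affl-2, and 2 lower and 1 higher in N2. CYP2-like members had 7 called lower and none higher in affl-2, and 5 lower and none higher in N2, out of 29.

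cyp-36A1, on chromosome I from 8341682 to 8346023 on the minus strand, rose with heat in both genotypes. It had 18.5, 13.4 and 21.1 CPM in heated affl-2, against 7.81, 7.48 and 9.56 CPM in unheated affl-2, a log2 change of 1.09 ± 0.17 (adjusted p = 0.000379). In N2 it had 18.8, 16.9 and 15.5 CPM with heat, against 4.92, 5.64 and 5.76 CPM without, a log2 change of 1.65 ± 0.17 (1.04e-05). Heated libraries reached like levels in the 2 genotypes, and the unheated ones were higher in affl-2. cyp-43A1, a CYP3-like gene, had 28.9, 37.7 and 33.6 CPM in N2 with heat, against 21.1, 19.3 and 20.3 CPM without (0.72 ± 0.14, 0.00176). In affl-2 its groups overlapped, with 35.6, 31.4 and 44.1 CPM with heat, against 27.5, 33.5 and 29.5 CPM without (0.29 ± 0.14, 0.146). cyp-29A3 rose in N2 to 5.78 ± 0.607 CPM with heat, against 3.85 ± 0.321 CPM without (SD, n = 3 each; 0.58 ± 0.16, 0.0148), and stood at 7.82 ± 0.478 and 7.97 ± 0.990 CPM in heated and unheated affl-2 (−0.03 ± 0.15, 0.918).

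A few members passed as lower with heat in a single genotype. In affl-2 these were cyp-33A1, cyp-25A3 and cyp-33E1. cyp-33A1 had 9.95, 9.36 and 8.58 CPM in heated affl-2, against 12.8, 17.0 and 15.4 CPM in unheated affl-2 (−0.70 ± 0.13, adjusted p = 0.00134). In N2 it had 15.6, 16.7 and 15.5 CPM with heat, against 15.7, 17.1 and 17.0 CPM without (−0.05 ± 0.12, 0.802). cyp-25A3 changed by −1.0 ± 0.29 in affl-2 (0.0246) and −0.06 ± 0.29 in N2 (0.91), and cyp-33E1 by −0.56 ± 0.17 (0.0256) and −0.36 ± 0.17 (0.149). In N2 they were cyp-37A1 and cyp-25A2. cyp-37A1 averaged 29.1 ± 4.91 CPM in heated N2 and 42.3 ± 2.73 CPM in unheated N2 (−0.54 ± 0.14, 0.0122), against a change of −0.25 ± 0.14 in affl-2 (0.216). cyp-25A2 changed by −0.86 ± 0.19 in N2 (0.00422) and −0.54 ± 0.19 in affl-2 (0.0605).

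Leaving out 1 library ended 6 of the heat calls. In affl-2 these were cyp-25A3 (without each heated affl-2 library or unheated affl-2 replicate 2, log2 −1.05 to −0.64, adjusted p 0.0586 to 0.0948), cyp-33E1 (without heated or unheated affl-2 replicate 2, −0.48 to −0.42, 0.0814 to 0.101) and cyp-32B1 (without replicate 1 or 2 of heated or unheated affl-2, −0.79 to −0.66, 0.0591 to 0.104). In N2 they were cyp-37A1 (without heated replicate 1 or 2 or unheated replicate 1, −0.47 to −0.46, 0.062 to 0.0669), cyp-33C8 (without heated replicate 1 or 3 or unheated replicate 2, −1.30 to −1.04, 0.0592 to 0.0812) and cyp-29A3 (without heated replicate 2 or unheated replicate 3, 0.50 to 0.52, 0.0663 to 0.075). cyp-29A3 in N2 also missed the threshold without TMM (0.40, 0.087), and cyp-33E1 in affl-2 with the compared libraries alone (−0.61, 0.0524).

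**Figure D4:**
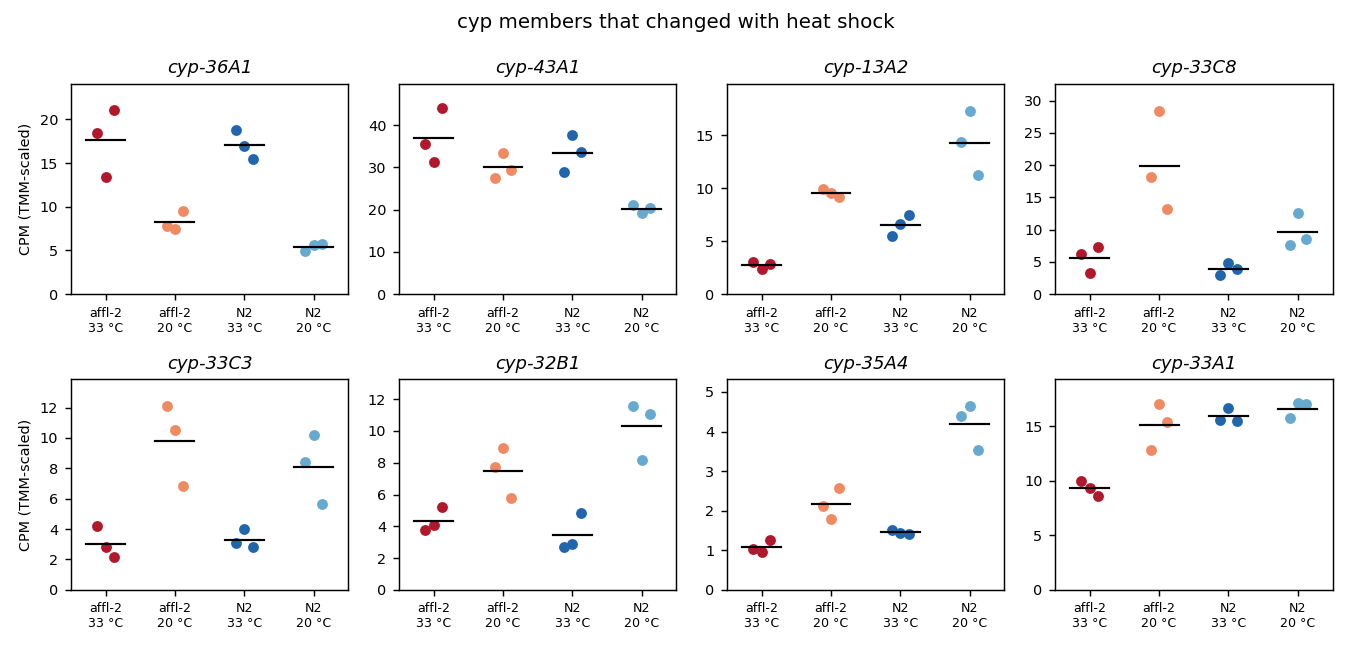
CPM after TMM scaling in each of the 12 libraries for 8 members that changed with heat shock in at least 1 genotype. Points are libraries and lines are group means; cyp-36A1 averages 17.7 CPM in heated and 8.28 CPM in unheated affl-2, and 17.1 and 5.44 CPM in heated and unheated N2.

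Whether heat acted differently on a member in the 2 genotypes was tested as the interaction, the heat change in affl-2 minus that in N2. No member passed (edgeR), against 0.715% of all genes (0.0455% higher and 0.669% lower). An unadjusted p under 0.05 was found for 8 of the 55 members, beside 1027 of all 15386 genes. With DESeq2 1 member passed, cyp-33A1 (−0.68 ± 0.20, adjusted p = 0.0469). With edgeR cyp-33A1 differed by −0.64 ± 0.18 (95% interval −1.02 to −0.26, adjusted p = 0.185), and without unheated affl-2 replicate 1 it passed (−0.80, 0.0457). cyp-25A3 differed by −0.94 ± 0.40 (−1.82 to −0.07, 0.678), and passed with the exchanged replicate block (−0.91 ± 0.21, 0.0434). For cyp-29A3 the difference was −0.61 ± 0.21 (−1.07 to −0.16, 0.404), for cyp-43A1 −0.43 ± 0.20 (−0.85 to −0.01, 0.724), and for cyp-36A1 −0.56 ± 0.24 (−1.07 to −0.04, 0.671). Intervals for cyp-33E1 (−0.71 to 0.31), cyp-37A1 (−0.13 to 0.70) and cyp-25A2 (−0.25 to 0.90) took in 0. These intervals are not adjusted for the number of genes. So in the main fit a heat call in 1 genotype alone is not shown to differ from the other genotype for any of these members. cyp-33A1 and cyp-25A3 passed only under the alternatives named.

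**Figure D5:**
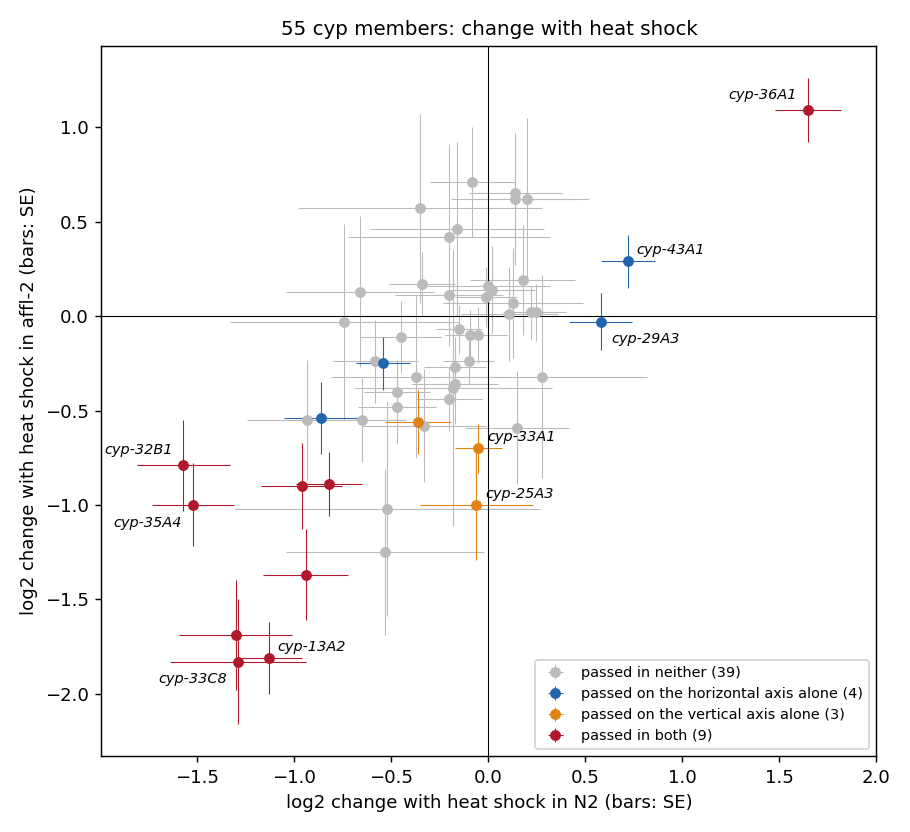
Log2 change with heat shock for the 55 members, in N2 on the horizontal axis and in affl-2 on the vertical axis, with standard errors as bars; colours show where a member passed. The 8 members that fell in both lie in the lower left corner, and cyp-36A1 stands alone in the upper right at 1.65 and 1.09.

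Muscle and intestinal markers moved with heat as well. All 6 muscle markers rose in affl-2 and 5 of 6 in N2, while 4 of 12 intestinal markers fell in affl-2 and 5 in N2. The intestinal list summed to 2460 to 2840 TPM in heated affl-2, against 3530 to 4090 TPM in unheated affl-2, and to 3550 to 3890 TPM in heated N2, against 4730 to 5200 TPM in unheated N2. Their part in the cyp changes was not tested.

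The family's summed level differed between CPM, which carry TMM scaling, and TPM, which do not. In CPM the 55 members summed to 439, 428 and 494 in heated affl-2, 509, 550 and 527 in unheated affl-2, 488, 536 and 584 in heated N2 and 626, 605 and 620 in unheated N2. On that scale heated lay below unheated in both genotypes (log2 ratio of group means −0.22 in affl-2 and −0.20 in N2). affl-2 likewise lay below N2 (−0.24 after heat shock and −0.22 at 20 °C). In deposited TPM the sums averaged 301 ± 14.1 and 394 ± 8.71 in heated and unheated affl-2, and 310 ± 19.7 and 390 ± 15.7 in heated and unheated N2 (SD, n = 3 each). On the TPM scale the heat ratios were −0.39 and −0.33, and the genotype ratios −0.04 and 0.02. A lower summed level in affl-2 was thus seen in TMM-scaled CPM and not in TPM. Leaving out TMM shifted the median gene by 0.224 after heat shock and 0.184 at 20 °C for affl-2 over N2. The part of TMM in this difference was not tested.

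Of the 55 members, 26 passed in at least 1 of the 4 pairwise comparisons and 29 in none. Heat and genotype calls met in 11 members, 5 had heat calls alone and 10 genotype calls alone. The same counts were not made over all genes, so no excess in the family is read from them. Each heat comparison shares a group of libraries with each genotype comparison, so these calls are not independent. cyp-42A1, a CYP4-like gene, was nearest the threshold among those that passed nowhere. It had 6.39, 12.5 and 11.7 CPM in N2 with heat, against 15.8, 21.9 and 20.5 CPM without (−0.93 ± 0.31, adjusted p = 0.0502). In unheated affl-2 it had 9.31, 5.92 and 15.0 CPM (−0.94 ± 0.31 against unheated N2, 0.0607). It was named after its values were seen.

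The genes lie in clusters, and 29 of the 55 members are on chromosome V. Joining neighbours with gaps of at most 20 kb gave 11 blocks with 45 cyp genes and 32 members. Neighbours did not always move together. cyp-34A8 (V, 3964797 to 3967823) and cyp-34A9 (3968134 to 3970540), both on the minus strand, are 310 bases apart, and at 20 °C in affl-2 against N2 they changed by 0.53 ± 0.16 and −1.96 ± 0.26. cyp-13A1 (II, 9779181 to 9781997) and cyp-13A2, 1386 bases apart on the minus strand, changed by 1.02 ± 0.32 and −0.58 ± 0.17. In the block of cyp-25A1 to cyp-25A4 on chromosome III (3832591 to 3852080), cyp-25A1 and cyp-25A2 fell in affl-2 at 20 °C, while cyp-25A3 (0.54 ± 0.28, adjusted p = 0.233) and cyp-25A4 (0.12 ± 0.16, 0.683) lay above 0. In the block of cyp-33C3, cyp-33C4, cyp-33C5 and cyp-33C7 (V, 2236140 to 2252591), cyp-33C3 and cyp-33C5 fell with heat in both genotypes. cyp-33C4 lay at −0.55 ± 0.22 in affl-2 and −0.65 ± 0.23 in N2 and cyp-33C7 at −0.48 ± 0.19 and −0.47 ± 0.20, and none of those 4 values passed. kallisto divides reads that fit several transcripts, and the counts of cyp-25A1 to cyp-25A4, cyp-31A2, cyp-31A3, cyp-31A5, cyp-33C3, cyp-33C4, cyp-33C5, cyp-33C7, cyp-33E1, cyp-33E2, cyp-35A2, cyp-35A3, cyp-35A4, cyp-13A4, cyp-13A5 and cyp-13A12 were not whole in at least 7 of 12 libraries. How their reads were split between close relatives is uncertain. The opposite pairs above, cyp-34A8 with cyp-34A9 and cyp-13A1 with cyp-13A2, had whole counts throughout, but the calls of cyp-34A8, cyp-13A1 and cyp-13A2 at 20 °C were lost in 8, 9 and 7 of 18 alternatives. Counts were also whole for cyp-35D1, cyp-14A5, cyp-32A1, cyp-36A1, cyp-43A1 and cyp-33A1.

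The genes that supply and regulate P450s gave a mixed picture. emb-8, the P450 reductase gene, averaged 160 ± 6.84 CPM in heated and 175 ± 12.3 CPM in unheated affl-2, and 180 ± 5.16 and 164 ± 10.8 CPM in heated and unheated N2 (SD, n = 3 each). It passed in no comparison, with log2 changes between −0.17 and 0.14. Of 34 listed genes for electron supply, regulation, hormone synthesis and transport, 33 were tested (hsd-1 was not). With heat, 2 rose and 8 fell in affl-2 (30.3% of the list, against 21.4% of all genes), and 3 rose and 10 fell in N2 (39.4% against 21.5%). Between genotypes, 6 were higher and 3 lower in affl-2 after heat shock (27.3% against 19.7%), and 4 higher and 2 lower at 20 °C (18.2% against 14%). The list's medians were −0.18 and −0.25 with heat in affl-2 and N2, and 0.17 and 0.11 between genotypes after heat shock and at 20 °C. None passed for the interaction by edgeR, and 3 of the 33 had an unadjusted p under 0.05, beside 1027 of all 15386 genes.

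Regulators included the largest of these changes. nhr-114, a nuclear receptor gene, averaged 21.9 ± 3.17 and 109 ± 17.4 CPM in heated and unheated affl-2, against 49.9 ± 3.74 and 212 ± 20.3 CPM in heated and unheated N2 (SD, n = 3 each). It passed in all 4 comparisons, at −2.32 ± 0.14 and −2.09 ± 0.14 with heat in affl-2 and N2 and −1.19 ± 0.14 and −0.95 ± 0.13 for affl-2 over N2 after heat shock and at 20 °C. pqm-1, a stress and development factor gene, rose with heat by 0.95 ± 0.15 in affl-2 and 1.87 ± 0.16 in N2, and was lower in heated affl-2 than in heated N2 (−0.51 ± 0.15, adjusted p = 0.0286). skn-1, the Nrf homologue of detoxification, rose with heat by 0.46 ± 0.10 and 0.49 ± 0.10 in affl-2 and N2. sbp-1, the worm SREBP, fell with heat (−1.12 ± 0.10 in affl-2 and −0.92 ± 0.10 in N2) and was higher in affl-2 at 20 °C (0.47 ± 0.10). nhr-176, known to act with cyp-35D1 in the response to thiabendazole, had 3.70 ± 0.199 and 6.82 ± 1.15 CPM in heated and unheated affl-2, and 3.31 ± 0.912 and 4.91 ± 0.333 CPM in heated and unheated N2. It passed with heat in affl-2 (−0.88 ± 0.20, adjusted p = 0.00583) and not between genotypes (0.47 ± 0.19 at 20 °C, 0.125). Any part of nhr-176 in the cyp-35D1 difference was not tested. egl-9, the prolyl hydroxylase that holds HIF-1 down, fell with heat (−0.52 ± 0.12 in affl-2 and −0.62 ± 0.12 in N2, 0.00798 and 0.00235), and hif-1 did not pass (−0.26 ± 0.10 and −0.28 ± 0.10, 0.0707 and 0.055). aha-1, whose protein pairs with HIF-1 and AHR-1, was higher in heated affl-2 than in heated N2 (0.42 ± 0.12, 0.0228). The intestinal GATA factor gene elt-2 fell with heat by a log2 change of −0.53 ± 0.14 in each genotype.

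In the dafachronic acid pathway, daf-36, which encodes the oxygenase of the first step from cholesterol, was higher in affl-2 at both temperatures (0.77 ± 0.18 after heat shock and 0.71 ± 0.17 at 20 °C, adjusted p = 0.0082 and 0.0127). It fell with heat in both genotypes (−0.54 ± 0.17 in affl-2 and −0.60 ± 0.18 in N2). The P450 gene daf-9 averaged 4.28 ± 0.413 and 4.76 ± 0.513 CPM in heated and unheated affl-2, and 3.20 ± 0.494 and 3.88 ± 0.775 CPM in heated and unheated N2, and passed nowhere. daf-12 was higher in heated affl-2 than in heated N2 (0.61 ± 0.13, 0.00416), and so was nhr-8 (0.52 ± 0.17, 0.0443). din-1, elt-7, nhr-25, nhr-86 and pgp-1 fell and nhr-49 rose with heat in N2, by −0.43 ± 0.13, −0.42 ± 0.14, −0.90 ± 0.27, −0.43 ± 0.09, −0.70 ± 0.20 and 0.34 ± 0.09. Among transporters, mrp-1 was higher (0.40 ± 0.10 after heat shock and 0.46 ± 0.10 at 20 °C) and pgp-14 lower (−0.78 ± 0.10 and −0.58 ± 0.10) in affl-2. Both fell with heat in affl-2 (−0.30 ± 0.10 and −0.32 ± 0.10). hpo-19 was higher in affl-2 at both temperatures (0.42 ± 0.11 and 0.46 ± 0.11).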

How the data were processed

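RNA was measured in 12 libraries of whole animals. Per the labels' protocols, poly(A) RNA was fragmented to about 200 nt and made into libraries with a kit that keeps no strand. The submitters' processing notes name bcl2fastq 1.8.4, kallisto, with no version, and genome build WBcel235. The deposited tables hold, per the file headers, estimated counts (kallisto's expected counts, not all whole numbers) and TPM for 35862 transcripts. The authors' TPM values were summed per gene for levels. Estimated counts were summed per gene, giving 22010 genes (21839 matched to Ensembl release 115, WBcel235, and 171 not), and rounded; counts over 0.01 from a whole number were called not whole.

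The low-count filter was filterByExpr with the groups and a minimum count of 10, and 15386 genes passed it. edgeR 4.0.16 (R 4.3.3) fitted the 4 group means over 12 libraries with TMM and robust quasi-likelihood (residual degrees of freedom 8, biological coefficient of variation 0.147), with Benjamini-Hochberg adjustment over all genes and a threshold of 0.05. The error of a log2 change is its size over the root of F, and intervals cover 95%. Alternatives were DESeq2 1.42.0, library size alone, no low-count filter, the compared libraries alone, a replicate block, each library left out, deposited TPM for sums and, for membership, a minimum of 50 counts.

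Members and lists were chosen with earlier results of these data known. Genes named are the members that passed (at most 12 in each direction per comparison), the 10 members highest in TPM, members of the list of P450 suppliers and regulators that passed, and affl-2, hsp-70 and hsp-16.2; others are said to be named after their values were seen, except genes given as members of a family, a marker list or that list. CYP2-, CYP3- and CYP4-like groups come from general knowledge. Sequences and promoters were not used here.

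Replicate numbers come from the titles. Deviations of same-numbered libraries from their group means correlated at 0.451, 0.384 and 0.488 for heat in N2 and 0.233, 0.243 and 0.593 for genotype after heat shock. These numbers were taken to pair samples, less clearly for genotype, where heated affl-2 replicate 2 correlated at 0.256 with heated N2 replicate 1. For heat in affl-2 (0.131, −0.312 and 0.405) and genotype at 20 °C (0.114, −0.554 and 0.096) the numbers were not taken to pair samples. The main fit, which gave the calls, has no block and leaves any pairing unused. Blocks were run as alternatives only. With the numbers of unheated affl-2 replicates 1 and 2 exchanged, because their IDs disagree, the values were 0.474, 0.317 and 0.405, and 0.435, 0.215 and 0.096. Unheated affl-2 replicate 3 correlated at 0.303 with unheated N2 replicate 2, above the 0.096 with its own number.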

Additional observations from a re-analysis of the deposited data

How the results depend on the processing

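Of 57 member calls in the pairwise comparisons, 37 held in every alternative and 20 were lost in at least 1. None changed direction. Library size alone gave 19 members for heat in affl-2, against 12, and 20 for heat in N2, against 13. Over all genes it gave 3561 for heat in affl-2, against 3300, and 4398 for heat in N2, against 3314. For genotype it gave 5699 genes after heat shock, against 3034, and 3386 genes at 20 °C, against 2150. DESeq2 gave 1 member and 216 genes for the interaction, against 0 and 110. Sums in deposited TPM gave log2 ratios of −0.39 for heat in affl-2 and −0.04 and 0.02 for genotype after heat shock and at 20 °C, against −0.22, −0.24 and −0.22 in CPM. The cause of these shifts was not tested. A minimum of 50 counts left 41 members.

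With the replicate block as labelled, member counts were 13 and 18 for heat in affl-2 and N2, 16 and 24 for genotype after heat shock and at 20 °C, and 0 for the interaction. Over all genes the counts were 3910, 3852, 3667, 2670 and 125 in the same order. The call of cyp-33C8 at 20 °C was lost (adjusted p = 0.0528). This block changed no other member call from passing to not passing. With the exchanged replicate block the member counts were 19, 19, 20, 25 and 1. Over all genes they were 4789 and 4657 for heat in affl-2 and N2. For genotype after heat shock, genotype at 20 °C and the interaction they were 5155, 3604 and 221 genes. cyp-33C8 then missed for heat in N2 (0.0627) and at 20 °C (0.1).

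Leaving out 1 library gave 9 to 16 members for heat in affl-2, 11 to 16 for heat in N2, 10 to 15 for genotype after heat shock, 10 to 19 at 20 °C and 0 to 1 for the interaction. Over all genes the ranges were 2456 to 3252, 2277 to 3609, 1470 to 3955, 1211 to 2470 and 80 to 128. The count after heat shock was lower by more than 1.5 times without heated N2 replicate 1 (1768) or 2 (1730) or heated affl-2 replicate 1 (1470) or 3 (1944), and so was the count at 20 °C without unheated N2 replicate 1 (1425) or 3 (1211) or unheated affl-2 replicate 2 (1221). Depth limits the rarest members: those under 1 TPM had few counts per library, and a missed threshold there does not show an equal level.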
